A study of Mus musculus with 10 samples.

Results

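The genes described here encode the peptide hormones of the pituitary and the hypothalamus. The list holds 10 genes (Cga, Tshb, Prl, Gh, Pomc, Oxt, Avp, Trh, Crh and Pmch). They are taken by name, and the list was chosen with earlier results of these data known. Members were the probes of the array annotation that carry exactly 1 gene symbol and whose symbol is on the list. This gave 8 probes for 7 genes, out of 20355 probes in all, of which 14030 carry 1 symbol for 9930 genes. Trh had a pair of probes (8029 and 17945), and Cga, Tshb, Prl, Gh, Pomc and Avp had 1 each. Oxt, Crh and Pmch had no probe with their symbol alone and were not analysed here.

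Brain RNA came from 5 male Cin85-/- mice aged 15 weeks. Each was compared on 2 arrays, with the dyes exchanged, with a single pool of brain RNA from male wildtype mice of the same age. The pool lists 5 animals, while the labelling protocol speaks of 6. Cin85-/- is the label's name for mutants of Sh3kbp1, which encodes the adaptor protein CIN85, and absence of the protein was not checked here. The allele, the strain background and the cells affected are not given in the labels, and the mutant source name holds an abbreviation, Kdn, that they do not spell out.

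Hormone genes of this kind mark small and sharply placed cell groups. Thyrotropin is a dimer of the alpha subunit, encoded by Cga and shared with the gonadotropins, and a specific beta subunit, encoded by Tshb. Growth hormone and prolactin are related single-chain hormones made in somatotroph and lactotroph cells, and together with thyrotroph cells these depend on the pituitary transcription factor POU1F1, also called Pit-1. Pomc encodes the precursor of corticotropin and melanotropin and is expressed in the pituitary and in neurons of the arcuate nucleus. Trh and Avp are made by hypothalamic neurons, Trh acting on the thyrotroph cells and Avp being released from the posterior lobe. A ratio of bulk tissue cannot tell fewer cells of a type from less RNA per cell, and it does not show whether pituitary tissue was attached to a brain. Ratios also carry no level, so the labelled tissue could not be checked against marker levels.

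The upstream sequences of Prl, Tshb and Cga are shown because Prl and Tshb shared their highest and lowest mouse in the results that follow, and Cga, the partner subunit of Tshb, did not share them. They are the 250 bases before the annotated start of each gene, from RefSeq on GRCm38.p6, written 5′ to 3′ on the gene's strand. Prl is at chr13:27057320-27057569 on the + strand, Tshb at chr3:102782715-102782964 on the - strand and Cga at chr4:34893529-34893778 on the + strand. Capitals mark matches on either strand to ATGNATA, a short form of the Pit-1 element, and to TATAAA, the TATA box. Where matches touch or overlap, the capitals run together.
Prl: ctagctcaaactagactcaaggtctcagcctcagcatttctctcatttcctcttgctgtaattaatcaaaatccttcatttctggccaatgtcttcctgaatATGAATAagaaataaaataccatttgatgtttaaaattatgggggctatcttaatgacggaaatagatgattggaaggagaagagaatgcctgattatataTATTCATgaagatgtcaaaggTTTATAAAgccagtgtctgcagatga
Tshb: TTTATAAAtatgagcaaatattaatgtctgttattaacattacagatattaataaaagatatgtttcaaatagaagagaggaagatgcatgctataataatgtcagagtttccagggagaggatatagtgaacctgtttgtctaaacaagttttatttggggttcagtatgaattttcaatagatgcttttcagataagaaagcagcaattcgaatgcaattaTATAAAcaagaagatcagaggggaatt
Cga: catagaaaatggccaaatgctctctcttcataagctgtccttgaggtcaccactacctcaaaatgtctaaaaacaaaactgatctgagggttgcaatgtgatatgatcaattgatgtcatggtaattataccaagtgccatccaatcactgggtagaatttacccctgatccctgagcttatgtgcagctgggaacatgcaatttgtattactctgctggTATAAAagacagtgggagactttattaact
In Prl the Pit-1 letters matched at 148 to 142 bases before the start and, on the other strand, at 47 to 41 bases before it. No match stood in the Tshb or the Cga window, which says only that these letters are not there. A TATA box on the gene's strand began 24 bases before the start in Prl, 27 in Tshb and 30 in Cga. Tshb also held TATAAA on its strand at 248 to 243 bases before the start. On the other strand TATAAA matched at 250 to 245 bases before the start in Tshb and at 26 to 21 in Prl. Of 32851 promoter windows of this length, 7.92% held the Pit-1 letters and 12.4% held TATAAA. A window was held for 8 of the 10 genes and for neither Gh nor Crh, so Gh could not be searched for these letters. The arrays measured no binding, so the matches describe sequence alone.

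All values are log2 ratios as the authors deposited them. The numerator is not stated, nor whether columns of the exchanged dye orientation were already turned to run the same way as the rest, so a sign is that of the deposited scale and does not say which RNA was more abundant. Sh3kbp1, the gene of CIN85, gave a mean of 0.0082 ± 0.14 (SD, n = 5 mice) on probe 8640, with array values from -0.312 to 0.271. On probe 4508 it had values on 4 arrays, of which the 3 with the mutant in Cy5 read 2.71, 3.19 and 17.6 and the remaining array -2.35. The region these probes cover is not given, so neither checks the genotype. The array of mouse 3 with the mutant in Cy3 stood apart. It had 16816 values and an interquartile range of 1.43, against 18773 to 19424 values and 0.453 to 0.994 on the other 9 arrays. Each array also repeats a single extreme value, called a capped ratio here. Of 1024 capped ratios, the 384 on arrays with the mutant in Cy5 were positive and the 640 on arrays with the mutant in Cy3 were negative.

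The comparison of the Cin85-/- mice with the pool called no hormone gene. The pair mean, the average of the 2 arrays of a mouse after each array was centred on its median, was tested against 0 over the 5 mice with limma, with Benjamini-Hochberg adjustment over 16939 probes. Of the 7 hormone probes tested, for 6 genes, 0 passed an adjusted p of 0.05, as did 0% of all probes. The smallest adjusted p of all probes was 0.911 by limma. At an unadjusted p under 0.05 there was 1 of the 7, Cga, against 3.73% of all probes. Cga was also the only 1 of the 7 with the same sign in all 5 mice, against 7.01% of the probes with values on all arrays. Avp lacked values on too many arrays to be tested.

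Cga, the alpha subunit of thyrotropin and the gonadotropins, had deposited ratios of 0.375, -0.071, -0.353, -0.113 and 0.368 in mice 1 to 5 with the mutant in Cy5. The arrays with the mutant in Cy3 read 0.127, 0.450, 3.398, 0.978 and 0.492. The Cy3 value of mouse 3 lay far above the others, the dye orientations overlapped, and 1.43% of the probes on that wide array were at or above it. The pair mean was 0.56 ± 0.55 (SD, n = 5 mice), and limma put its 95% interval at 0.04 to 1.07 (adjusted p = 0.911). The exact sign-flip test over the 5 mice gave 0.0625, which is the smallest p it can give. Without mouse 3 the mean was 0.32 (limma, unadjusted p = 0.0168, adjusted p = 0.891). With mouse 3 entered by its Cy5 array alone it was 0.18 (limma, unadjusted p = 0.245, adjusted p = 0.956). The arrays with the mutant in Cy5 alone had a mean of 0.04, and those with it in Cy3 alone 1.08.

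Tshb, the specific subunit of thyrotropin, had ratios of -0.295, -0.938, -1.292, -0.134 and -1.436 in mice 1 to 5 with the mutant in Cy5. On the exchanged arrays they were 0.138, -0.115, -0.251, 0.414 and -0.706. In every mouse the array with the mutant in Cy5 was the lower of the pair, and on both sets of arrays mouse 4 was highest and mouse 5 lowest. The pair mean was -0.47 ± 0.49 (SD, n = 5 mice), and its 95% interval reached from -0.94 to 0.0041 (limma, adjusted p = 0.911). It was negative in 4 of 5 mice, and it was -0.32 without mouse 5 and -0.62 without mouse 4. The subunits of thyrotropin thus had pair means of opposite sign, neither of which passed, and the difference between them was not tested.

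Prl, which encodes the hormone of lactation and is held down by dopamine from the hypothalamus, had the widest spread of the 7 probes. Its ratios in mice 1 to 5 with the mutant in Cy5 were 0.017, -1.621, -0.302, 0.314 and -1.807. With the mutant in Cy3 they were 0.422, 0.339, 0.922, 1.963 and -0.017. Each mouse again had its lower value on the Cy5 array, with mouse 4 highest and mouse 5 lowest on both sets. Over the 10 arrays the SD was 1.1, higher than for 90.1% of the probes with values on all arrays, whose median SD was 0.566. Averaged by mouse, Prl came to 0.015 ± 0.82 (SD, n = 5 mice), with 95% limits of -0.72 and 0.75 (limma, adjusted p = 0.993). Mean differences of either sign as far as these limits were not distinguished from 0.

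Gh, which encodes growth hormone, had ratios of -0.008, 0.306, 0.492, 1.005 and -0.561 in mice 1 to 5 with the mutant in Cy5. In the opposite orientation they were 0.298, 0.090, 1.072, 1.734 and 0.275. Mouse 4 was highest on both sets, while the lowest was mouse 5 with the mutant in Cy5 and mouse 2 with it in Cy3. Gh had a pair mean of 0.46 ± 0.60 (SD, n = 5 mice), positive in 4 of 5 mice, with 95% limits of -0.10 and 1.02 (limma, adjusted p = 0.911). Without mouse 4 it was 0.24.

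**Figure D1:**
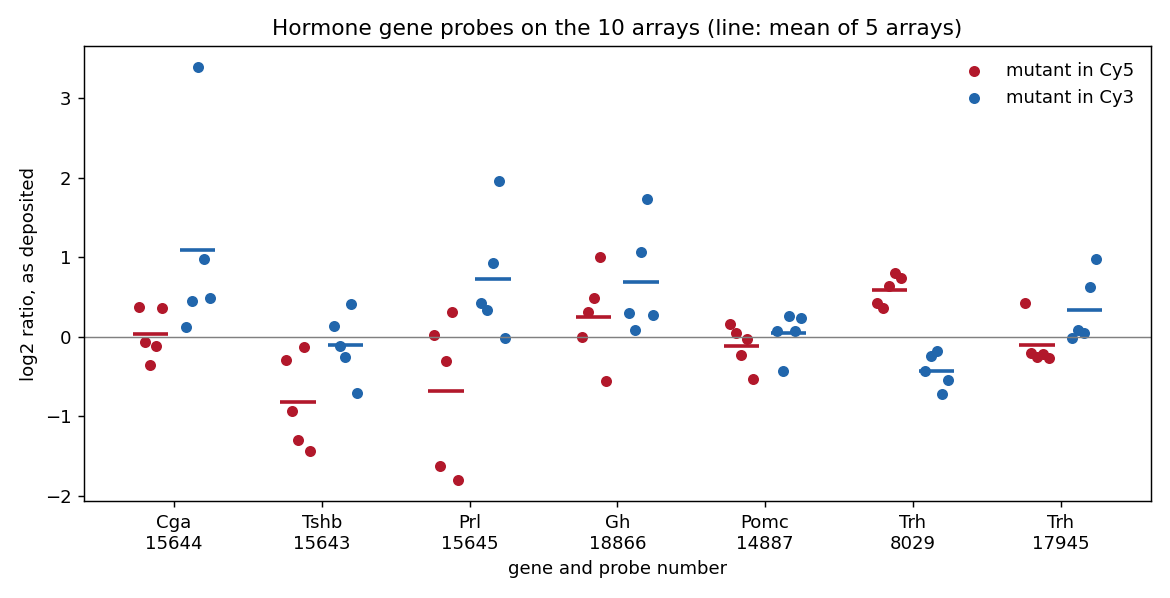
Deposited log2 ratio (vertical axis) of each of the 7 tested hormone probes on the 10 arrays, with 5 arrays in each dye orientation and a line at their mean. The orientations lie apart for Trh probe 8029 alone, and the Cga value of 3.398 belongs to mouse 3 with the mutant in Cy3.

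Tshb, Prl and Gh therefore shared the mouse with the highest ratio, on both of its arrays. This was noticed in the values and then counted, on a list chosen with earlier results of these data known. Mouse 4 was highest in both dye orientations on 3 of the 7 hormone probes, against 3.14% of 13572 probes. Mouse 5 was lowest in both on 2 of the 7, Tshb and Prl, against 4.02%, and the same 2 had both features, against 0.228%. These counts take the columns as deposited, with no scaling to a common spread. Interquartile ranges were 0.894 to 0.994 on the arrays of mice 4 and 5, and 0.453 to 0.753 on those of mice 1 and 2. The arrays of mouse 3 had 0.796 and 1.43. With the sign of the Cy3 arrays turned, none of Tshb, Prl and Gh had either feature. Mouse 4 was then highest in both orientations on 1 of the 7, Trh probe 8029, against 3.84% of all probes. Mouse 5 was lowest in both on 1 of the 7, Trh probe 17945, against 6.06%, and 0 had both features, against 0.206%. In mouse 4 the pair means were 0.13 for Tshb, 1.13 for Prl and 1.36 for Gh. In mouse 5 they were -1.08 for Tshb, -0.92 for Prl and -0.15 for Gh. Mouse 4's Prl value with the mutant in Cy3 was reached by 2.08% of the probes on its array and its Gh value by 2.73%. On its array with the mutant in Cy5 these shares were 32.6% for Prl and 10.2% for Gh. Its Tshb values were less extreme, reached by 58.2% of probes with the mutant in Cy5 and by 27.6% with it in Cy3.

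Whether the 5 RNA samples differed from each other was tested with a moderated F test of limma over the 10 arrays, with the dye orientation as a covariate. This test was added after the values were seen. Its replicates are the paired arrays of the same RNA, so it compares these mice and not the genotypes. No probe passed after adjustment over 13572 probes (0%), and the adjusted p was 0.988 for Tshb, Prl and Gh, the smallest of all probes. At an unadjusted p under 0.05 there were 3 of the 7 hormone probes, Prl (0.015 by limma), Gh (0.0237) and Tshb (0.0318), against 2.81% of all probes. The other 4 had unadjusted p from 0.609 for Cga to 0.962 for Trh probe 8029. Without mouse 4 the p-values were 0.104 for Prl, 0.208 for Gh and 0.115 for Tshb, and 0 of the 7 stayed under 0.05. Without mouse 5 the p-values were 0.0515 for Prl, 0.0493 for Gh and 0.115 for Tshb. Tshb also moved to 0.0502 without mouse 1. With the arrays scaled to a common spread, the p-values were 0.0358 for Prl, 0.0318 for Gh and 0.0583 for Tshb. With the sign of the Cy3 arrays turned, the p-values were 0.919, 0.951 and 0.984 for Prl, Gh and Tshb.

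**Figure D2:**
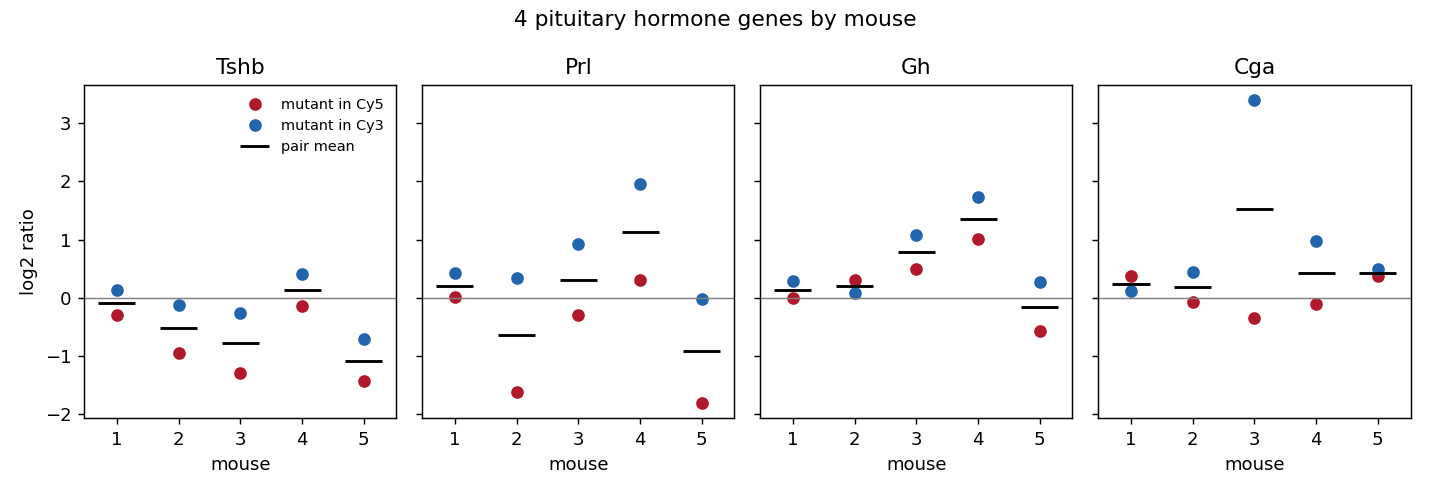
Deposited log2 ratio (vertical axis) of Tshb, Prl, Gh and Cga in each mouse (horizontal axis), 1 point for each dye orientation and a black line for the pair mean of the centred values. Mouse 4 is highest in both orientations for Tshb, Prl and Gh, and the Cga pair mean of 1.52 in mouse 3 rests on its Cy3 array.

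The probes of Tshb, Cga and Prl carry consecutive numbers, 15643 to 15645, while that of Gh is 18866. Whether consecutive numbers are neighbours on the slide is unknown here. The probes on either side, S100a5 (15642) and Crybb2 (15646), had unadjusted p of 0.207 and 0.0553 by limma in the test between mice. S100a5 in mouse 4 was 1.24 with the mutant in Cy3, the highest of its Cy3 arrays, and -0.369 with it in Cy5, where mouse 2 was highest at -0.101. Mouse 5 was lowest for S100a5 in both orientations, at -0.736 on its Cy5 array and -0.393 on its Cy3 array, as it was for Tshb and Prl. Crybb2 in mouse 4 was 0.057 with the mutant in Cy3 and 0.072 with it in Cy5, highest in neither. The part of probe position in the pattern of Tshb and Prl was not tested.

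Markers of the pituitary other than the hormones were few. Of 21 genes of pituitary regulators, receptors and further hormones, 5 had a tested probe (Crhr1, Dlk1, Drd2, Gata2 and Nr5a1). Lhb, Fshb, Pou1f1 and Ghrhr, whose products are a pair of beta subunits, the Pit-1 factor and the receptor for growth hormone releasing hormone, were not among them. Of the 5 genes, 2 had a positive and 3 a negative mean, the median being -0.061. With the sign of the Cy3 arrays turned it was -0.19, against -0.051 over all genes. By the most complete probe of each gene it was 0.011. The order of mice was counted here on pair means per gene, not in both orientations per probe as above. By this measure mouse 4 was highest in 0 of the 5 genes, against 16.3% of 7371 genes measured in all mice. The hormone genes had 3 of 6. A count of 0 in 5 genes is near the share of all genes and says little. The list medians ranged from -0.091 in mouse 1 to 0.20 in mouse 2, with 0.07 in mouse 4 and -0.083 in mouse 5. These 5 genes are also expressed in brain, Drd2, a dopamine receptor, being abundant in striatum, so they do not mark pituitary tissue alone. The part of attached pituitary tissue in the values of Tshb, Prl and Gh was not tested.

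Pomc had the narrowest spread of the 7 probes. Its ratios in mice 1 to 5 were 0.165, 0.051, -0.233, -0.026 and -0.527 with the mutant in Cy5. The Cy3 arrays read 0.067, -0.431, 0.265, 0.078 and 0.236. No mouse was highest or lowest on both sets, and the orientations overlapped. The SD over the 10 arrays was 0.266, and only 6.79% of probes had a lower one. Its pair mean was -0.043 ± 0.12 (SD, n = 5 mice), with 95% limits of -0.27 and 0.19 (limma, adjusted p = 0.944).

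Trh, the hypothalamic releasing hormone for thyrotropin, was read by a pair of probes that behaved differently. On probe 8029 the ratios in mice 1 to 5 were 0.419, 0.362, 0.634, 0.805 and 0.738 with the mutant in Cy5. With the mutant in Cy3 they were -0.435, -0.246, -0.176, -0.718 and -0.544. Every Cy5 array was positive and every Cy3 array negative, so the orientations did not overlap. Of all probes with 10 values, 15.1% had orientations that did not overlap, and 3.54% had all Cy5 arrays above 0 and all Cy3 arrays below 0. The pair mean was 0.076 ± 0.092 (SD, n = 5 mice), with 95% limits of -0.14 and 0.29 (limma, adjusted p = 0.911).

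On Trh probe 17945 the ratios were 0.427, -0.200, -0.251, -0.222 and -0.271 in mice 1 to 5 with the mutant in Cy5. With the mutant in Cy3 they were -0.019, 0.091, 0.044, 0.621 and 0.979. Mouse 1 alone had a positive Cy5 value and a negative Cy3 value, and the other 4 mice had the reverse of what probe 8029 showed. This probe averaged 0.11 ± 0.19 over the pair means (SD, n = 5 mice), with 95% limits of -0.15 and 0.37 (limma, adjusted p = 0.911). Both probes are annotated to the same RefSeq transcript, and the stretch each covers is not given.

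Avp, the precursor of vasopressin, had values on 4 arrays, all with the mutant in Cy5. They were -0.708 in mouse 1, 0.484 in mouse 2, 3.401 in mouse 3 and 17.64 in mouse 5, the last being the capped ratio of that array. No array with the mutant in Cy3 gave a value, and neither did that of mouse 4 with the mutant in Cy5. Only 9 probes of the series had values on at least 4 arrays of the Cy5 orientation and on 0 of the other, and 2 had the reverse. Avp therefore had no pair mean, and its values in mice 1 and 2 lay on opposite sides of 0.

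If every array was deposited as Cy5 over Cy3 and none was turned, the difference from the pool lies in the dye term, which is the Cy5 value minus the Cy3 value of a mouse, divided by 2. If the columns were already turned, the dye term holds the dye bias. By limma 0 of the 7 hormone probes passed for the dye term at an adjusted p of 0.05, as did 0% of all probes. At an unadjusted p under 0.05 there were 3 of the 7 (Prl, Trh probe 8029 and Tshb), against 27.6% of all probes. The same 3 had a single sign in all 5 mice, against 30.5%. These shares of all probes are high, so the counts alone say little of the hormone probes.

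The dye term of Prl was -0.70 ± 0.31 (SD, n = 5 mice), from -0.20 in mouse 1 to -0.98 in mouse 2, with 95% limits of -1.04 and -0.36 (limma, adjusted p = 0.0988). That of Trh probe 8029 was 0.51 ± 0.20 (SD, n = 5 mice), with 95% limits of 0.24 and 0.78 and the same adjusted p. This was the smallest adjusted p of all probes for the dye term, and probes with different unadjusted p share it. Tshb gave -0.35 ± 0.12 (SD, n = 5 mice; limma, adjusted p = 0.107). Gh had -0.22 ± 0.20, Cga -0.52 ± 0.80, Pomc -0.072 ± 0.24 and Trh probe 17945 -0.22 ± 0.32 (SD, n = 5 mice each), with adjusted p from 0.256 to 0.715. The dye terms of Prl, Tshb and Gh had a smaller spread between mice than their pair means, which had SDs of 0.82, 0.49 and 0.60. The remaining hormone probes had the reverse. These spreads are what the test between mice compares, so they add nothing to it.

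**Figure D3:**
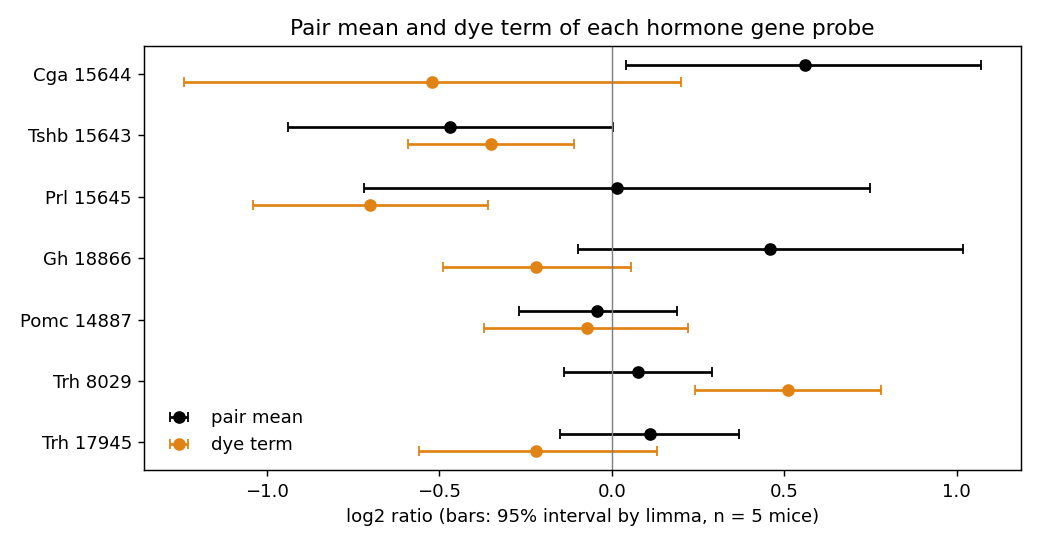
Pair mean (black) and dye term (orange) of each hormone probe on the log2 scale (horizontal axis), with 95% intervals by limma over 5 mice. The dye-term intervals of Tshb, Prl and Trh probe 8029 leave out 0 before adjustment, as does the pair-mean interval of Cga, and no value passes after adjustment.

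Other genes of the hormone axes gave no call by limma for the pair mean. In the counts and medians of lists a gene's value is the mean of its tested probes, while a gene named with its SD is given by its probe with the smallest p. A value given as turned has the sign of the Cy3 arrays turned. Of 19 other hypothalamic peptide genes, 4 were tested, and all 4 were negative with a median of -0.07, but the median was 0.35 with the sign of the Cy3 arrays turned. Sst, which encodes somatostatin, the inhibitor of growth hormone release, had -0.11 ± 0.24 (SD, n = 5 mice), and -0.26 turned. Among 3 hypothalamic transcription factors, 2 were positive and 1 negative. Nkx2-4 had -0.21 ± 0.22 (SD, n = 5 mice), and -0.20 turned. Pou3f2, needed for neurons that make Crh, Oxt and Avp, had 0.52 ± 0.99 (SD, n = 5 mice), of which mouse 3 had 2.25. Turned, Pou3f2 had -0.08. Of 4 receptors and binding proteins of the hormones, 2 were positive and 2 negative, and the median of 0.019 became 0.42 turned. Tshr, the thyrotropin receptor, had 0.85 ± 1.3 (SD, n = 4 mice), with 2.34 in mouse 4, and took the other sign turned, at -1.04. Trhde, the enzyme that degrades Trh, had 0.12 ± 0.22 (SD, n = 5 mice), and 0.68 turned.

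Genes of prohormone processing and the secretory granule split into 4 positive and 7 negative means (median -0.045), and Cadps, a factor in dense-core vesicle release, had -0.23 ± 0.15 (SD, n = 5 mice), and -0.06 turned. Genes that respond to growth hormone, thyroid hormone or glucocorticoids had 8 positive and 4 negative means (median 0.05), against a median of -0.0026 over 8711 genes. Turned, the list median was -0.081, and that over all genes was -0.051. Dio2, the enzyme that activates thyroid hormone, had 0.22 ± 0.17 (SD, n = 5 mice), and -0.19 turned. No probe of these lists, or of the pituitary list, had an unadjusted p under 0.05 by limma, against 414 of 11719 probes of all genes, and 0 passed after adjustment.

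Tissues that border the brain were covered by few genes. Of 3 choroid plexus genes all 3 were negative, with a median of -0.32 that was -0.063 with the Cy3 arrays turned. They include Ttr, the thyroid hormone carrier transthyretin, at -0.41 ± 0.18 (SD, n = 5 mice) on probe 19, with an adjusted p of 0.911 by limma. Ttr has 2 probes with its symbol alone, and the values of the other are not reported here. Turned, the sign on probe 19 changed, to 0.34. Sostdc1 had -0.32 ± 0.14 (SD, n = 5 mice; limma, adjusted p = 0.911) and stayed negative when turned, at -0.43. At an unadjusted p under 0.05 there were 2 of the 4 choroid plexus probes and 1 of the 9 probes of the meninges, against 3.73% of all probes. The latter was Col3a1, a collagen of connective tissue, at 0.77 ± 0.63 (SD, n = 5 mice), with 1.43, 0.84 and 1.31 in mice 3, 4 and 5 and 0.09 over all mice turned. The 5 genes of the meninges had a median of 0.025, with 3 positive and 2 negative. Of the 2 genes of red blood cells 1 was positive and 1 negative when a gene was the mean of its probes, with a median of -0.006, which was -0.21 by the most complete probe of each gene. Their probes with the smallest p were both positive, Hba-a1 at 0.20 and Alas2 at 0.03. No gene of the pineal list had a probe with its symbol alone.

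The probes most like each hormone probe were taken over the 10 arrays after the mean of each dye orientation was removed, from 9407 named probes with all values. The arrays come from 5 mice and share the pool, and the best of so many probes will be close for any pattern. For Cga they were Mrvi1 and Rnf146 (Pearson r of 0.99 each), which had 4.59 and 3.46 on the array of mouse 3 with the mutant in Cy3, where Cga had 3.398. For Prl they were Grb7 (0.92) and Ccs (0.89), for Gh Cacng4 (0.91) and Rasl11a (0.88), and for Tshb Clic4 and Galnt6 (0.96 each). Pomc was closest to Slc24a3 (0.93) and Arhgap28 (0.91). The Trh probes had different partners, Atp5o (0.93) and Nek9 (0.92) for probe 8029 and Cx3cl1 (0.97) and Zbtb40 (0.96) for probe 17945.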

How the data were processed

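Two-colour arrays of 5 Cin85-/- mice, each on 2 arrays with the dyes exchanged, were analysed against 1 wildtype pool. Per the labels' protocols, total RNA was isolated with a column kit, reverse transcribed and labelled indirectly. The authors deposited log2 ratios, and no source used here gives the scanner, background correction, normalization, numerator or sign of the swapped arrays. Array medians lay between -0.008 and 0.027. The files hold no signal intensities, and precision is limited by the number of mice and by the single pool.

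Here each array was centred on its median and the arrays of a mouse were averaged. A probe needed both arrays in at least 4 mice. The 5 values were tested against 0 with limma 3.58.1 in R 4.3.3, Benjamini-Hochberg adjusted over all probes, with a threshold of 0.05. With 1 pool as the only control, the spread among wildtype mice is left out. The p-values of the pair mean and the dye term measure the spread between these mice, array noise included. Those of the test between mice rest on the spread between the arrays of a mouse. The scripts were tested on simulated data. Gene names follow GEO's array annotation, in which some may be outdated, and all 8 member probes matched RefSeq by Entrez identifier. Every member probe was to be named, up to 2 genes of each list with the smallest p (by their best probe, not all printed), and the 2 probes most like each member. The members and lists were chosen with earlier results of these data known. The sign-flip p is printed unadjusted, because its adjustment covered the hormone probes alone. Alternatives changed the centring, scaling, swap direction, filter, moderation, capped ratios and mice. The test between mice, the order of mice and the entry of mouse 3 by its Cy5 array alone were added after seeing the data.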

Additional observations from a re-analysis of the deposited data

Results flagged for a closer look

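The pair means of Cga held a value far from the others, 1.52 in mouse 3, and so did its arrays with the mutant in Cy3, where mouse 3 had 3.40. That array also had the fewest values and the widest spread of the 10. Pomc had -0.43 in mouse 2, far below its other arrays with the mutant in Cy3. Trh probe 17945 had 0.43 in mouse 1, far above its other arrays with the mutant in Cy5. These are 4 of 22 groups of values examined by Dixon's test at its 95% critical value, which by its construction singles out about 1 in 20 groups of normally distributed values. The groups are not independent, since pair means are made from the array values. The 1.52 of Cga contains its 3.40, so the count cannot be set directly against that rate. Trh probe 8029 was positive on all arrays with the mutant in Cy5 and negative on all with it in Cy3. Its dye term was 0.51, with an adjusted p of 0.0988 by limma, the smallest of all probes and not particular to it.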

How the results depend on the processing

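Of 161 values of the hormone probes under alternatives (pair means and dye terms), 14 took the other sign and 0 passed the threshold, and the lowest adjusted p was 0.0791 by limma. The count of probes past the threshold was 0 in every alternative run. With the Cy3 arrays turned, the mean was -0.52 for Cga, -0.70 for Prl, -0.22 for Gh and -0.22 for Trh probe 17945. Using only arrays with the mutant in Cy5 gave -0.68 for Prl and -0.10 for Trh probe 17945, and using only those with it in Cy3 gave 0.029 for Pomc and -0.44 for Trh probe 8029. The Prl mean was -0.047 after scaling and -0.11 with mouse 3 entered by its Cy5 array, and lay between -0.26 and 0.25 with each mouse left out. The dye term of Pomc lay between -0.15 and 0.0005 in the same way. Hormone probes with 1 sign in all mice numbered 1, and 2 after scaling, 3 with the Cy3 arrays turned, 2 on Cy5 arrays alone, 3 on Cy3 arrays alone, 0 with mouse 3 entered by its Cy5 array and 1 to 2 with each mouse left out. Hormone probes with an unadjusted p under 0.05 between mice numbered 3, then 0 with the Cy3 arrays turned and 0 to 3 with each mouse left out. Of 20 list medians under alternatives, 5 moved by more than the spread between mice. With a mouse left out, a probe needed both arrays in 3 of the other 4. In fits on all 10 arrays the within-mouse correlation was estimated at -0.24, and at -0.0196 with a dye covariate.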
